A study of Mus musculus and Rattus norvegicus with 6 samples.

Results

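The insulin-like growth factor (IGF) binding protein genes Igfbp1 to Igfbp7 and Igfals, which encodes the acid-labile subunit, were followed across liver microarrays of leptin-deficient mice and rats. They were taken as every probe set annotated to exactly 1 of these 8 symbols: 17 of 34945 such probe sets on the mouse arrays and 14 of 20826 on the rat arrays, for 8 of 18193 and 8 of 14217 genes. Each species had 3 groups of male animals aged 20 weeks, sampled 6 hours after an intraperitoneal injection, with 1 array per group. The groups in mice of the C57/BL6J background were Lepob/Lepob mutants given recombinant murine leptin, Lepob/Lepob mutants given saline, and wild-type (WT) littermates given saline. The groups in rats of the F344/NSlc background were Lepmkyo/Lepmkyo mutants given the same murine hormone, Lepmkyo/Lepmkyo mutants given saline, and WT littermates given saline. Both alleles remove functional leptin, and no WT animal in these data received leptin. Some rat labels name the mouse allele, and the rat genotype was read from the sample descriptions. The labels give neither the feeding state, the hour of collection nor whether RNA of several animals was pooled. With 1 array per group no difference could be set against variation between animals, and no p-value is given.

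IGF binding proteins are secreted proteins that hold IGF-1 and IGF-2 in the circulation and in tissue, lengthen their half-life and govern their access to the IGF-1 receptor. Hepatocytes secrete most of the circulating IGF-1, IGFBP1, IGFBP2 and acid-labile subunit, and the acid-labile subunit joins IGF-1 and IGFBP3 or IGFBP5 in a ternary complex that keeps the growth factor in the blood. Igfbp1 is known as a gene that insulin represses and fasting induces, Igfbp2 as a liver gene that leptin induces, and Igfals as a target of growth hormone acting through STAT5.

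The letters upstream of Igfbp1, Igfbp2 and Igfals, the 3 members at least 2-fold lower than WT in a saline-injected mutant, are shown first. Igfbp7, at least 2-fold higher in the rat mutant, held none of the motifs searched in its mouse promoter and is not printed. All 8 genes matched mouse promoters in the RefSeq table of build GRCm38.p6, 11 promoters in all. The motifs searched on both strands were the forkhead core GTAAACA, the insulin response element core CAAAACA, the STAT motif TTCNNNGAA, an E-box CACGTG, and an HNF1 core (GTTAAT, any base, ATT). The 250 bases before the annotated start are printed 5′ to 3′ on the gene's strand, and capitals mark motif letters. Igfbp1 lies at chr11:7197537-7197786 on the plus strand, the second of 3 annotated Igfals starts at chr17:24877981-24878230 on the plus strand, and the first of 2 Igfbp2 starts at chr1:72824230-72824479 on the plus strand.
Igfbp1: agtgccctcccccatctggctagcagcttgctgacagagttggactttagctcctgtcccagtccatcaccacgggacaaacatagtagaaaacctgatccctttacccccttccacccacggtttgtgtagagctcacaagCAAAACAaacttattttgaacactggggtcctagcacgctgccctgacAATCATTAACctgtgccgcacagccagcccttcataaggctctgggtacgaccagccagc
Igfals, second start: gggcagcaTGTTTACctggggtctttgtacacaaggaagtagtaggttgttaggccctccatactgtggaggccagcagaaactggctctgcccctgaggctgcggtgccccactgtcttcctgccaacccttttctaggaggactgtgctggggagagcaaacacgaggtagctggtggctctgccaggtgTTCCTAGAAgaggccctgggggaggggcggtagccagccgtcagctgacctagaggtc
Igfbp2, first start: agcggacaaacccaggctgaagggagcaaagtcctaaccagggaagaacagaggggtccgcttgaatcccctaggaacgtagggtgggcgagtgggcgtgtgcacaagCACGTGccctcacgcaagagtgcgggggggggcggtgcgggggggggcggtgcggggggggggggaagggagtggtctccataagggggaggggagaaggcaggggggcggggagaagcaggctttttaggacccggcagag

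Counting -1 as the base before the start, Igfbp1 held the insulin response element core at -108 to -102 and the HNF1 core, on the opposite strand, at -60 to -51. Igfals held a STAT motif at -58 to -50 and a forkhead core, on the opposite strand, at -242 to -236 before its second start, and another STAT motif at -236 to -228 before its first start. Igfbp2 held an E-box at -142 to -137 before its first start. None of the 5 motifs was found in the promoters of Igfbp3, Igfbp4, Igfbp5, Igfbp6 and Igfbp7, at the second start of Igfbp2 or at the third start of Igfals. Of all 32851 mouse promoters of this length in the table, 6.28% held the insulin response element core, 0.4% the HNF1 core, 8.3% the STAT motif, 3.65% the forkhead core and 7.15% the E-box. A match of letters is a description and shows no binding.

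**Figure D1:**
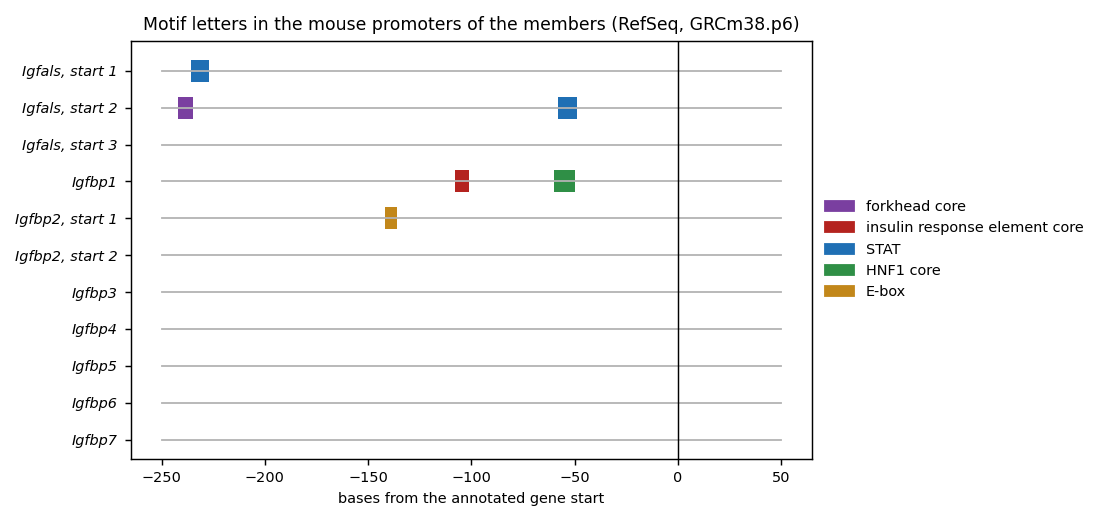
Positions of the 5 motifs in the 11 mouse promoters of the 8 genes (x axis: bases from the annotated gene start; grey lines: the region from 250 bases before to 50 after the start; coloured blocks: motif letters on either strand). Blocks lie in both Igfals starts named in the text, in Igfbp1 and in the first Igfbp2 start, and the other 7 promoters hold none.

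The values are MAS5 signals, linear brightness units that are comparable between arrays for the same probe set and not between probe sets. A floor stood in for detection, set at each platform's median signal (82.7 in mouse and 97.0 in rat), and lower signals were raised to it before ratios were taken. Of the 31 probe sets of the family, 22 reached the floor on all 3 arrays of their species and 6 on none. A gene was represented by its brightest probe set and counted as apart at 2-fold, a log2 ratio of 1. As the only measure of error, the pooled SD between the log2 ratios of probe sets of 1 gene was 0.43 for saline-injected mutants against WT (4484 mouse genes and 1989 rat genes) and 0.24 to 0.25 for leptin against saline. This SD covers disagreement between probe sets and no variation between animals. The hepatocyte markers of the labelled tissue were at the floor or above on all arrays (8 of 8 in mouse and 9 of 9 in rat). Of the fat cell markers, 3 of 3 in mouse and 3 of 4 in rat were below it on every array. Adipoq and Lep were among these in both species. Rat Cfd was above it, at 502.0 in the leptin-injected mutant and 462.8 in the saline-injected mutant, against 599.3 in WT. The level of Lep in liver is therefore no check of the genotype.

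In saline-injected mutants of both species the hepatic transcripts of Igfbp2 and Igfals were lower than in WT, and in the rat mutant Igfbp1 was lower too. In mouse, 2 of 8 genes were at least 2-fold lower (Igfbp2 and Igfals), against a background of 3.71% of 11956 genes, and 0 of 8 were at least 2-fold higher, against 4.46%. In rat, 3 of 8 were at least 2-fold lower (Igfbp1, Igfbp2 and Igfals), against 1.45% of 9817 genes, and 1 of 8 was higher (Igfbp7), against 2.99%. The median log2 ratio of the 8 genes was 0.07 in mouse and -0.06 in rat, beside -0.03 and 0.04 over all genes. These medians include genes that passed the floor only through an array where they were higher: mouse Igfbp6 and rat Igfbp5 through the saline-injected mutant, and rat Igfbp6 through the mutants.

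**Figure D2:**
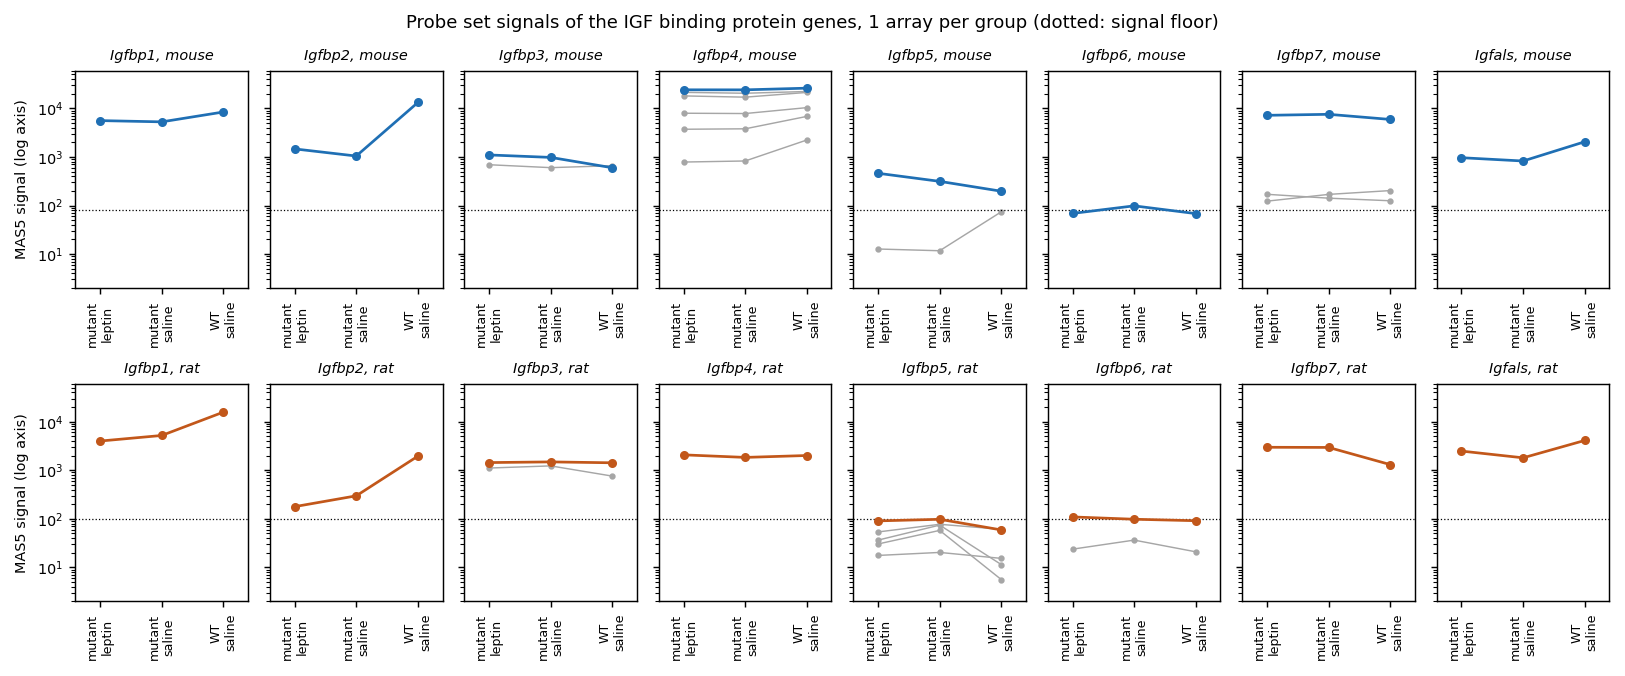
MAS5 signal of every probe set of the 8 genes (y axis, log scale) on the 3 arrays of each species (upper row mouse, lower row rat; coloured line: brightest probe set; grey: other probe sets; dotted line: floor of 82.7 in mouse and 97.0 in rat). Igfbp2 and Igfals are lower on both mutant arrays than on the WT array in both species, and Igfbp5 and Igfbp6 lie at or near the floor in rat.

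Igfbp2, whose product binds both IGFs and circulates mainly in binary complexes, stood furthest from WT. In mouse its signal was 1465.6 in the leptin-injected mutant and 1045.2 in the saline-injected mutant, against 13241.2 in WT. The saline-injected mutant thus had 7.9% of the WT signal, 12.7-fold lower, and this was the 9th lowest of 11956 log2 ratios (-3.66). In rat its signal was 178.0 in the leptin-injected mutant and 297.3 in the saline-injected mutant, against 1952.8 in WT. The saline-injected rat mutant had 15.2% of the WT signal, 6.57-fold lower, the 6th lowest of 9817 log2 ratios (-2.72). Both mutant arrays of each species lay below the WT array by many times the probe set SD. The gene has 1 probe set per species, and the mouse one is of a type that can bind several transcripts of the gene.

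Igfals, the subunit that completes the ternary complex, was lower in both mutants by similar amounts. In mouse its signal was 965.2 in the leptin-injected mutant and 825.3 in the saline-injected mutant, against 2056.5 in WT, a log2 ratio of -1.32 for the saline-injected mutant (2.49-fold lower, the 182nd lowest of all genes). In rat the signals were 2483.5 in the leptin-injected mutant and 1804.3 in the saline-injected mutant, against 4111.4 in WT, a log2 ratio of -1.19 (2.28-fold lower, the 84th lowest). The saline-injected mutants had 40.1% of the WT signal in mouse and 43.9% in rat. Each gene value rests on 1 probe set per species.

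Igfbp1, the binding protein that follows insulin and fasting within hours, was lower in both mutants, further so in rat. In rat its signal was 3997.6 in the leptin-injected mutant and 5207.9 in the saline-injected mutant, against 15767.9 in WT. That left 33.0% of the WT signal in the saline-injected mutant, 3.03-fold lower, the 32nd lowest of 9817 log2 ratios (-1.60). In mouse the signals were 5608.8 in the leptin-injected mutant and 5285.1 in the saline-injected mutant, against 8442.4 in WT. The mouse log2 ratio of -0.68 lay beyond the probe set SD of 0.43 but under 2-fold, at 62.6% of the WT signal. With arrays centred on their medians it was -0.42, within that SD. Whether the mouse and rat ratios differ beyond variation between animals was not tested. In the rat, the glucocorticoid- and fasting-induced hepatocyte gene Tat stood at 960.5 in the leptin-injected mutant and 849.7 in the saline-injected mutant, against 5897.2 in WT. In mouse it had 11907.6 in the leptin-injected mutant and 10092.7 in the saline-injected mutant, against 12472.1 in WT. Clock output also differed between the groups: Dbp had signals of 7858.7 in the leptin-injected and 6612.5 in the saline-injected mouse mutants, against 268.2 in WT. In rat, Dbp had 1503.0 in the leptin-injected and 1087.4 in the saline-injected mutants, against 543.5 in WT. The clock gene Per2 had log2 ratios of 2.68 in mouse and 0.56 in rat for the saline-injected mutants, on its brightest probe sets. The rat Per2 ratio was under 2-fold. The part of the hour of collection or of feeding in the Igfbp1 and Igfbp2 values was not tested.

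Igfbp3, the main carrier of IGF-1 in blood and in liver a product of non-parenchymal cells, gave unequal answers by probe set. In mouse the brighter probe set had 1100.1 in the leptin-injected mutant and 979.2 in the saline-injected mutant, against 599.2 in WT, a log2 ratio of 0.71 for the saline-injected mutant. The other mouse probe set had 691.7 in the leptin-injected mutant and 602.4 in the saline-injected mutant, against 660.1 in WT, a log2 ratio of -0.13. In rat the brighter probe set had 1439.6 in the leptin-injected mutant and 1486.9 in the saline-injected mutant, against 1424.4 in WT (log2 ratio 0.06). The other rat probe set had 1111.2 in the leptin-injected mutant and 1230.1 in the saline-injected mutant, against 757.5 in WT (log2 ratio 0.70). In both species 1 of 2 probe sets was higher in the mutants and the other was near WT, so no direction is given for Igfbp3.

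Igfbp7, a secreted protein of vessels and stroma that binds IGFs weakly, was higher in the rat mutant. Its rat signals were 2975.3 in the leptin-injected mutant and 2952.4 in the saline-injected mutant, against 1307.9 in WT, a log2 ratio of 1.17 (2.26-fold higher, the 193rd highest of 9817). In mouse the brightest of its 3 probe sets had 7209.0 in the leptin-injected mutant and 7558.5 in the saline-injected mutant, against 5928.5 in WT, a log2 ratio of 0.35, within the probe set SD, or 0.61 with arrays centred on their medians, beyond it. The other mouse probe sets had log2 ratios of 0.18 and -0.26. Most markers of stellate cells and fibroblasts were higher in the saline-injected mutants too, 9 of 10 measured in rat and 8 of 11 in mouse. Their log2 ratios ran from -0.11 to 1.96 in rat and from -0.42 to 1.09 in mouse. In rat their summed signal was 13329 in the leptin-injected and 13114 in the saline-injected mutants, against 5506 in WT (7 of 11 markers at the floor or above on all arrays). Such sums are weighted to the brightest probe sets. Of the 10 rat stellate markers measured in that comparison, 4 were at least 2-fold higher in the saline-injected mutant and 0 lower, and of the 11 measured in mouse 1 was higher and 0 lower. In mouse the same sum was 30049 in the leptin-injected and 30155 in the saline-injected mutants, against 17929 in WT (9 of 11 at the floor or above). The summed sinusoidal endothelial markers in rat were 9233 in the leptin-injected and 8188 in the saline-injected mutants, against 6435 in WT (7 of 7 measured), and in mouse 10553 in the leptin-injected and 11006 in the saline-injected mutants, against 8651 in WT (9 of 9 measured). In the saline-injected mutants the endothelial log2 ratios ran from -0.03 to 0.69 in rat (6 of 7 above 0). In mouse they ran from -0.98 for Pecam1 to 1.96 for Lyve1 (7 of 9 above 0). Of these endothelial markers 0 of 7 in rat and 1 of 9 in mouse were at least 2-fold higher in the saline-injected mutant. The shares over all genes were 2.99% and 4.46%. The part of these cells in the Igfbp7 and Igfbp3 values was not tested, and in whole tissue more cells of a type and more RNA per cell cannot be told apart.

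Igfbp4, a binding protein that mainly inhibits IGF action, was near WT on its brightest probe sets. In mouse that probe set had 24173.7 in the leptin-injected mutant and 24124.7 in the saline-injected mutant, against 26131.5 in WT, a log2 ratio of -0.12 for the saline-injected mutant that turned to 0.14 when arrays were centred on their medians. All 6 mouse probe sets were lower in the saline-injected mutant as deposited, over a wide range of log2 ratios, -1.43 to -0.12. The lowest belonged to a dimmer probe set with signals of 785.5 in the leptin-injected mutant and 826.6 in the saline-injected mutant, against 2234.0 in WT. The 6 probe sets target 1 gene and are no replicates of the condition. In rat, Igfbp4 had 2077.2 in the leptin-injected mutant and 1840.0 in the saline-injected mutant, against 2013.2 in WT (log2 ratio -0.13).

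Igfbp5 and Igfbp6, produced mainly by stromal cells in most tissues, were dim in liver. In mouse the brighter Igfbp5 probe set had 461.1 in the leptin-injected mutant and 314.3 in the saline-injected mutant, against 196.8 in WT. The saline-injected mutant was 1.60-fold higher (log2 ratio 0.68), and the second probe set lay below the floor on all arrays, at 12.7 in the leptin-injected mutant and 11.7 in the saline-injected mutant, against 74.2 in WT. In rat 4 of 5 Igfbp5 probe sets were below the floor on every array, and the brightest had 90.6 in the leptin-injected mutant and 97.7 in the saline-injected mutant, against 59.0 in WT. Mouse Igfbp6 had 68.7 in the leptin-injected mutant and 98.4 in the saline-injected mutant, against 68.1 in WT. The brighter rat Igfbp6 probe set had 109.3 in the leptin-injected mutant and 98.0 in the saline-injected mutant, against 91.3 in WT, and the other was below the floor throughout. Apart from the brighter mouse Igfbp5 probe set, these signals allow no direction.

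Igfbp1 and Igfbp3 lie next to each other on opposite strands in RefSeq's mouse table, with 0 genes between them, and so do Igfbp2 and Igfbp5. In the saline-injected mouse mutant Igfbp2 had a log2 ratio of -3.66 beside 0.68 for its neighbour Igfbp5. Igfbp1 had -0.68 beside 0.71 and -0.13 for the 2 Igfbp3 probe sets.

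**Figure D3:**
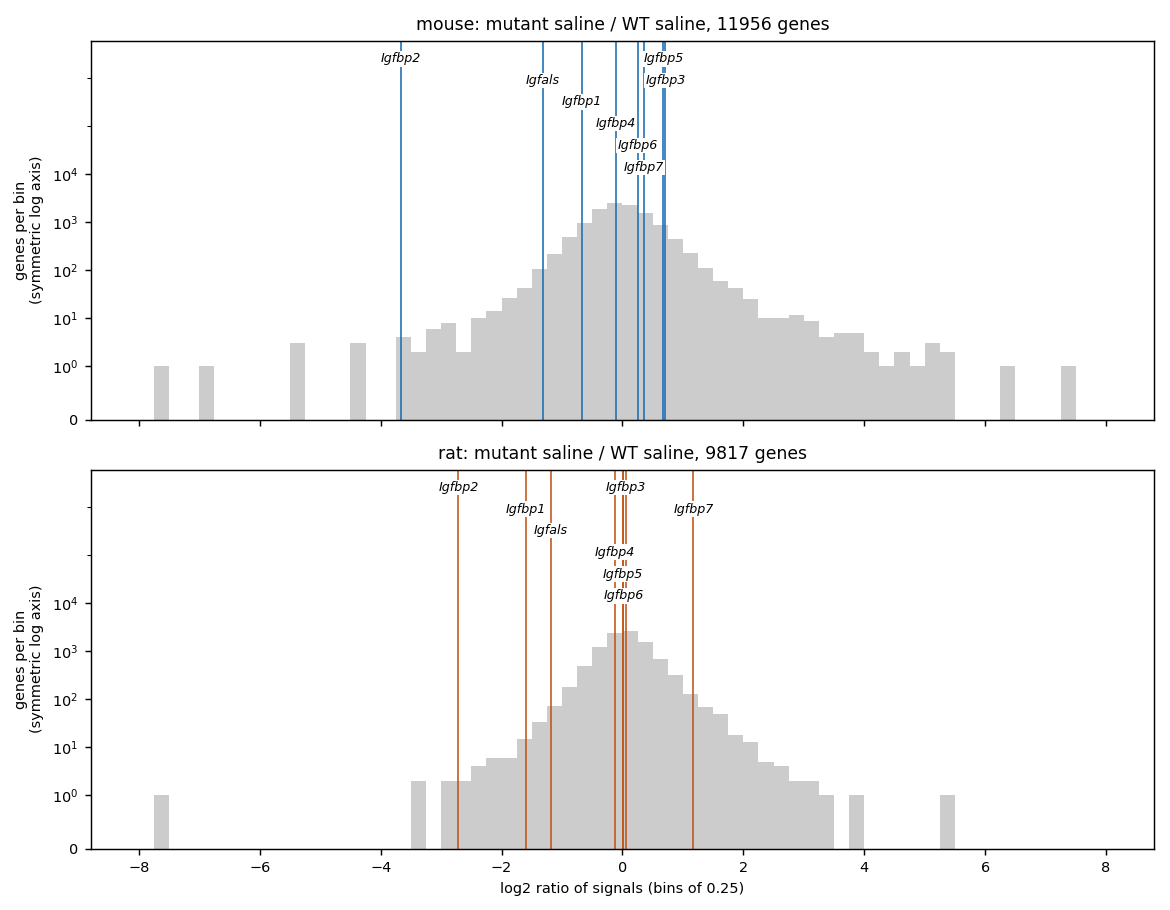
Number of genes by log2 ratio of saline-injected mutant over WT (x axis, bins of 0.25; y axis on a symmetric log scale; upper panel 11956 mouse genes, lower panel 9817 rat genes), with a vertical line at each of the 8 genes. Igfbp2 lies in the left tail of both species at -3.66 and -2.72, while Igfbp4 lies near 0 at -0.12 and -0.13.

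The leptin injection was meant to find early response genes, sampled at 6 hours. Food intake over those hours is not among the values used here. None of the 8 genes was 2-fold apart between leptin-injected and saline-injected mutants in either species. In mouse 0 of 8 were higher, against 0.182% of 11536 genes, and 0 of 8 lower, against 0.243%. In rat 0 of 8 were higher, against 0.237% of 9705 genes, and 0 of 8 lower, against 0.278%. The median log2 ratio of the 8 genes was 0.13 in mouse and 0.00 in rat, beside -0.002 and 0.01 over all genes. These medians include mouse Igfbp6 and rat Igfbp5, which passed the floor only through the saline-injected mutant, where they were higher. At these backgrounds a count of 0 among 8 genes says little about the family.

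Igfbp2 differed in opposite directions in the 2 species. In mouse its signal was 1465.6 in the leptin-injected mutant against 1045.2 in the saline-injected mutant, 1.40-fold higher (log2 ratio 0.49, the 434th highest of 11536). In rat it was 178.0 in the leptin-injected mutant against 297.3 in the saline-injected mutant, 1.67-fold lower (log2 ratio -0.74, the 111th lowest of 9705). Each ratio exceeded the probe set SD, 0.25 in mouse and 0.24 in rat, but rests on 1 array per group. The SD was pooled over genes and not taken at the brightness of Igfbp2. With the floor at the 75th percentile, 452.7 in rat, both rat signals lay under it and gave no ratio. The mouse ratio had no value once only probe sets specific to 1 transcript were kept. In neither setting could the directions be compared. Where measured, the ratios ran from 0.45 to 0.49 in mouse and from -0.74 to -0.68 in rat. The difference between the species was not tested. Neither mutant came near WT after leptin, with 11.1% of the WT signal in mouse and 9.1% in rat.

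Igfals had a higher signal after leptin in both species, in mouse by no more than probe sets of a gene disagree. The signals were 965.2 in the leptin-injected mouse mutant against 825.3 in the saline-injected mutant (log2 ratio 0.23). In rat they were 2483.5 in the leptin-injected mutant against 1804.3 in the saline-injected mutant (log2 ratio 0.46, the 414th highest). The leptin-injected mutants had 46.9% of the WT signal in mouse and 60.4% in rat, against 40.1% and 43.9% in the saline-injected mutants. Igfbp1 had a log2 ratio of 0.09 in mouse and -0.38 in rat. That left 66.4% of the WT signal in the leptin-injected mouse mutant and 25.4% in the rat one. Mouse Igfbp5 was 1.47-fold higher after leptin (log2 ratio 0.55, the 306th highest). Igfbp3, Igfbp4 and Igfbp7 had log2 ratios of -0.07 to 0.17 in mouse and -0.05 to 0.17 in rat on their brightest probe sets, within the probe set SD.

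The leptin-injected mutants were set against the same WT arrays as the saline-injected ones, so the 2 contrasts with WT are not independent. In mouse 2 of 7 measured genes were at least 2-fold lower (Igfbp2, log2 ratio -3.18, and Igfals, -1.09), against 3.46% of 11958 genes, and 1 was higher (Igfbp5, 1.23), against 3.98%. With arrays centred on their medians, Igfals had -0.88, under 2-fold, and Igfbp3 had 1.09, past it (0.88 as deposited). The other mouse Igfbp3 probe set had 0.07 as deposited in this contrast, so again no direction is given for Igfbp3. With the floor at the 75th percentile, Igfbp5 had 0.26. In rat 2 of 7 were lower (Igfbp2, -3.46, the 3rd lowest of 9742, and Igfbp1, -1.98, the 20th lowest), against 1.61%, and 1 was higher (Igfbp7, 1.19), against 2.83%. Rat Igfals had a log2 ratio of -0.73 in this contrast, and so was under 2-fold. The members' medians were -0.11 in mouse and 0.02 in rat, beside -0.03 and 0.06 over all genes. The rat median includes Igfbp6, which passed the floor only through the leptin-injected mutant, where it was higher.

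**Figure D4:**
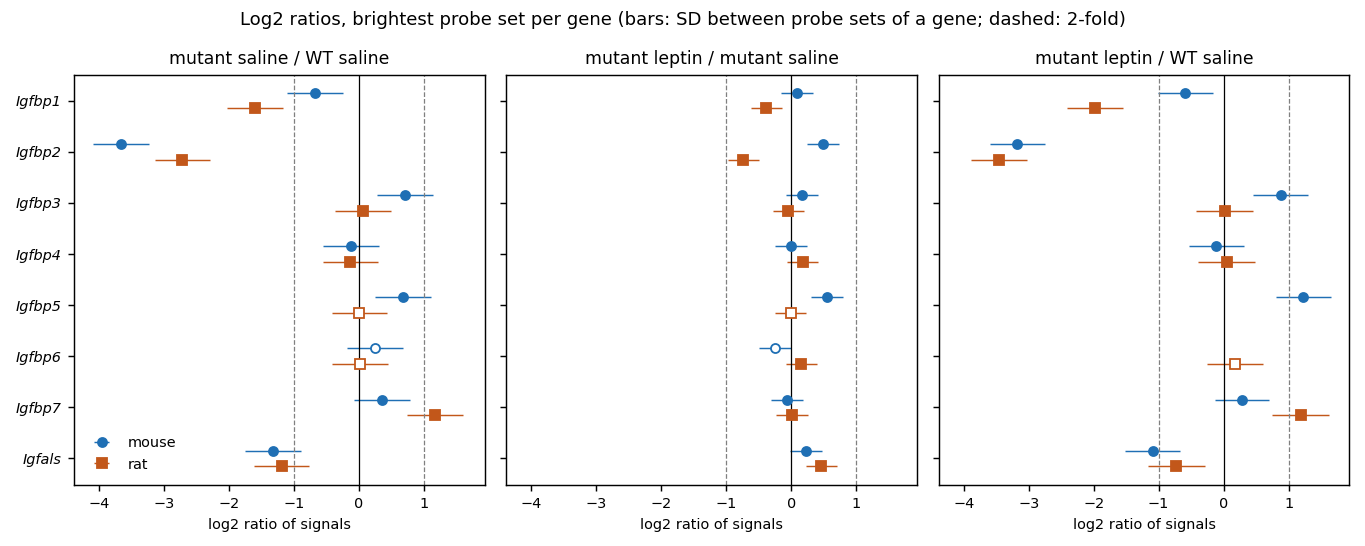
Log2 ratio of the brightest probe set of each of the 8 genes (x axis) in the 3 contrasts (circles: mouse; squares: rat; open symbols: 1 of the arrays under the floor; bars: pooled SD between probe sets of a gene, 0.24 to 0.44; dashed lines: 2-fold). Igfbp2 lies beyond the dashed lines in both species in both contrasts with WT and on opposite sides of 0 for leptin against saline.

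The genes that the binding proteins serve and those that act on them were read from lists of the IGF axis. Among IGF ligands and receptors, 0 of 4 measured genes in mouse and 0 of 3 in rat were 2-fold apart in saline-injected mutants against WT. Over all genes 4.46% were higher and 3.71% lower in mouse, and 2.99% and 1.45% in rat. Igf1, the hepatic hormone itself, had signals of 13241.3 in the leptin-injected and 12440.2 in the saline-injected mouse mutants, against 17085.6 in WT. In rat it had 26788.4 in the leptin-injected and 25637.0 in the saline-injected mutants, against 30102.6 in WT. For the saline-injected mutants these are log2 ratios of -0.46 and -0.23, and all 4 mouse and all 3 rat Igf1 probe sets were lower, at -0.46 to -0.41 in mouse and -0.60 to -0.23 in rat. These ratios were smaller in size than those of Igfals and Igfbp2. The hepatocyte markers were mostly lower in the saline-injected mutants too. Their median log2 ratio was -0.33 in mouse (6 of 8 below 0 and 2 above) and -0.20 in rat (9 of 9 below 0). Whether the Igf1 ratios differ from this was not tested. Igf2 lay below the floor on all 6 arrays. The IGF-1 receptor gene Igf1r was dim, with log2 ratios of -0.89 and 0.44 on the 2 mouse probe sets above the floor and none measurable in rat. On the brighter of these it was 2.01-fold lower in leptin-injected mice than in WT. The other probe set was higher in that contrast (log2 ratio 0.62), so no direction is given for Igf1r. Igf2r, the clearance receptor for IGF-2, had 0.30 in mouse and 0.27 in rat, and the insulin receptor gene Insr 0.17 and -0.12.

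Growth hormone reaches Igfals and Igf1 through its receptor, JAK2 and STAT5, and Socs2 and Cish are inducible feedback inhibitors of that route. In saline-injected mutants against WT, 2 of 6 of these genes were 2-fold lower in mouse (Socs2 and Cish) and 1 of 6 in rat (Socs2). In either species 0 were higher. Over all genes 3.71% were 2-fold lower in mouse and 1.45% in rat, and 4.46% and 2.99% higher. Rat Socs2 passed the floor only through the WT array, where it was higher. The median log2 ratio of the list was -0.59 in mouse and -0.19 in rat. Socs2 had signals of 667.9 in the leptin-injected and 517.9 in the saline-injected mouse mutants, against 3742.3 in WT (log2 ratio -2.85). In rat it lay below the floor in both mutants, at 39.3 in the leptin-injected and 50.3 in the saline-injected one, against 226.9 in WT, at least 2.34-fold lower. Cish had 414.7 in the leptin-injected and 598.4 in the saline-injected mouse mutants, against 1460.5 in WT (log2 ratio -1.29). Its 2 rat probe sets disagreed, with log2 ratios of 0.69 and -1.14. After leptin, rat Cish was 4.16-fold lower on the brighter probe set, with 125.6 against 522.0 in the saline-injected mutant, and was the only gene of the list past 2-fold in either species in that contrast. The other rat probe set went below the floor, at 44.9 in the leptin-injected mutant against 112.6 in the saline-injected mutant. The receptor gene Ghr had log2 ratios of -0.28 in mouse and -0.12 in rat on its brightest probe set, and -1.43 and -0.80 on the dimmest. Mouse Stat5b had -0.88 in the saline-injected mutant and was 2.03-fold lower in the leptin-injected mutant than in WT.

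Insulin silences Igfbp1 through AKT and the FOXO factors. In saline-injected mutants 1 of 9 genes of this route was 2-fold higher in mouse (Foxo3), against 4.46% of all genes. In rat 1 of 8 was 2-fold lower (Irs2), against 1.45%. These counts rest on brightest probe sets, and some genes had a dimmer probe set past 2-fold. On it mouse Akt1 had a log2 ratio of -1.25 and mouse Pik3r1 1.73 (-0.50 and 0.47 on the brightest). Rat Akt1 had -1.20 and rat Akt2 -1.55 (0.17 and -0.13 on the brightest). Foxo3 had 1827.0 in the leptin-injected and 1767.1 in the saline-injected mouse mutants, against 761.9 in WT (log2 ratio 1.21), and a log2 ratio of -0.20 in rat. A dimmer mouse Foxo3 probe set above the floor had 0.70 in the saline-injected mutant, under 2-fold. Irs2, an insulin receptor substrate, had 321.5 in the leptin-injected and 328.4 in the saline-injected rat mutants, against 750.2 in WT (log2 ratio -1.19). In mouse Irs2 was dim, with a log2 ratio of -0.31 in the saline-injected mutant, and at least 2.30-fold lower in the leptin-injected mutant than in WT. Foxo1 had log2 ratios of 0.60, 0.32 and -0.12 on its 3 mouse probe sets above the floor, the brightest first. In rat it had 0.02, and -0.93 after leptin.

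Of the proteases that cut binding proteins and their inhibitors, 0 of 5 measured genes in either species were 2-fold apart in saline-injected mutants. The shares over all genes were 4.46% higher and 3.71% lower in mouse, and 2.99% and 1.45% in rat. Plg, the plasminogen gene, had log2 ratios of -0.60 in mouse and -0.37 in rat, and Ctsd, a lysosomal protease gene, 0.42 and -0.63. Pappa, whose product cuts IGFBP4, lay below the floor on all 3 mouse arrays.

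Among genes whose proteins carry an IGFBP-like domain, the same 2 were at least 2-fold higher in both saline-injected mutants. They were 2 of 7 measured in mouse and 2 of 3 in rat, against 4.46% and 2.99% of all genes. Of these 2, Esm1 counted as measured only through the mutant arrays, where it was higher. Esm1, an endothelial proteoglycan gene, had 462.6 in the leptin-injected and 432.8 in the saline-injected mouse mutants, against 66.2 in WT. In rat it had 530.4 in the leptin-injected and 505.4 in the saline-injected mutants, against 89.3 in WT. The WT signals lay below the floor, so the saline-injected mutants were at least 5.23-fold higher in mouse and at least 5.21-fold higher in rat. Ccn2, a connective tissue growth factor gene, had 1334.6 in the leptin-injected and 994.8 in the saline-injected mouse mutants, against 451.8 in WT (2.20-fold higher). In rat it had 2122.7 in the leptin-injected and 2218.8 in the saline-injected mutants, against 469.1 in WT (4.73-fold higher). The stellate and endothelial marker sums given above were higher in the same mutants, and their part in these values was not tested.

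**Figure D5:**
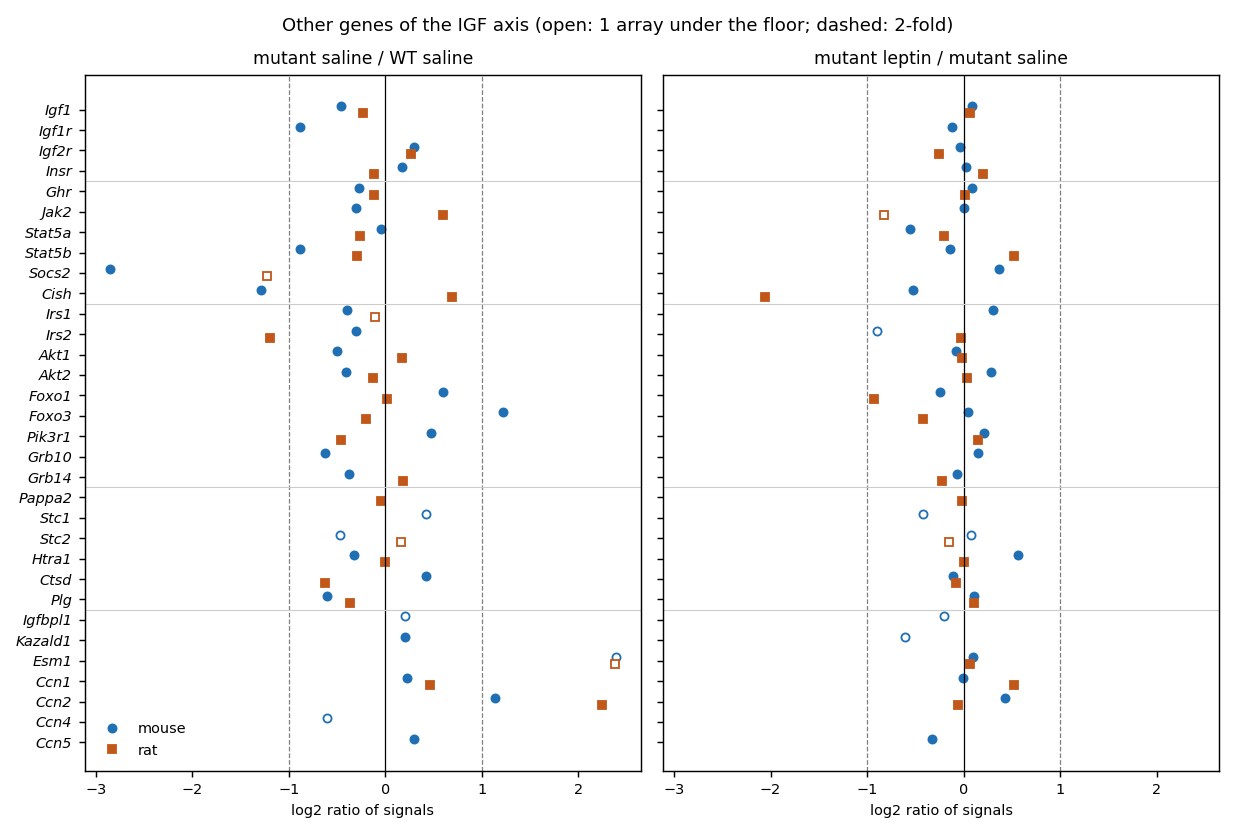
Log2 ratios of the other IGF axis genes on their brightest probe sets (left: saline-injected mutant over WT; right: leptin-injected over saline-injected mutant; circles: mouse; squares: rat; open symbols: 1 array under the floor; dashed lines: 2-fold; grey lines part the 5 lists). Esm1 and Ccn2 lie right of the dashed line in both species, Socs2 left of it, and rat Cish is the only point past it on the right panel.

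For Igfbp1, Igfbp2 and Igfals, the genes most like them were sought among the 8066 genes measured in both species, as the smallest distance over 4 log2 ratios (genotype and leptin contrasts in each species). Igfbp2 had no close match: the nearest was Onecut1, a hepatocyte transcription factor gene, at a distance of 1.44, with -3.01 in the saline-injected mouse mutant and -1.60 in the rat one. Slc25a30 at 1.95 and Avpr1a, a vasopressin receptor gene, at 1.98 came next. Igfals lay close to Ugt2b1, a glucuronosyltransferase gene, at 0.31, Cdk20 at 0.44 and Grb7 at 0.44. Igfbp1 lay nearest to Wsb1 at 0.42, with -0.98 in the saline-injected mouse mutant and -1.48 in the rat one, then Golph3 and Dnajc12, both at 0.59. These distances describe 6 arrays and carry no test.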

How the data were processed

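Liver RNA was hybridised to Affymetrix arrays, 1 per group, 3 in each species. What the authors deposited is 1 linear signal intensity per probe set, computed by MAS5 (per the submitters' processing notes; version not given in the sources used here). The 2%-trimmed mean of the deposited intensities was 496.0 to 496.9 on all 6 arrays, while their medians were 77.0 to 91.9 in mouse and 93.6 to 99.3 in rat, so arrays had been scaled to a common mean. Dim MAS5 signals are noisy and no detection calls were used here, hence the floor.

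Symbols came from the platform annotation: 34945 of 45037 mouse and 20826 of 31042 rat probe sets had exactly 1 symbol, and 34741 of the mouse symbols were updated by gene identifier. Signals were floored at the platform's median, genes needed 1 of the compared arrays at the floor, and the log2 ratio of the probe set of highest mean signal was taken. Ratios with an array under the floor are bounds. The named genes were all 8 members, list genes at least 2-fold apart in a comparison or else up to 3 with the largest ratios, Igf1, Igf2, Igf1r, Insr and Ghr in any case, and for Igfbp1, Igfbp2 and Igfals the 3 nearest genes. Some other genes, among them single marker genes such as Tat and the clock genes Dbp and Per2, were named outside this rule. The members, lists and marker genes were chosen with earlier results of these data known. Alternatives were quantile normalization, median centring, log2(signal + 16) with no floor, a gene's median ratio in place of its brightest probe set, a floor at the 25th or the 75th percentile, and only probe sets specific to 1 transcript by their name. The scripts were tested on simulated data. Python 3.11.15, numpy 2.4.6, pandas 2.3.3 and matplotlib 3.10.9 were used. The number of arrays limits the precision.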

Additional observations from a re-analysis of the deposited data

Results flagged for a closer look

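Igfbp2 differed in opposite directions between leptin-injected and saline-injected mutants in the 2 species, with a log2 ratio of 0.49 in mouse and -0.74 in rat. Each exceeded the SD between probe sets of a gene (0.25 in mouse, 0.24 in rat). The rat ratio had no value with the floor at the 75th percentile. The mouse ratio had none with only probe sets specific to 1 transcript, so neither setting allows the comparison. The difference between the species was not tested, and each value rests on 1 array per group and 1 probe set.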

How the results depend on the processing

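Of 301 alternative values of the members' ratios, 294 moved by less than the probe set SD, 7 moved further and 0 called values turned sign. Of the 301, 6, none past 2-fold, changed sign. Part of the 301 could not move. A gene with 1 probe set keeps its value under the median ratio, and signals above a floor keep theirs under that floor. Settings in which a gene was not measured are not among the 301. With probe sets that can bind several transcripts left out, Igfbp2, Igfbp4 and Igfbp5 had none in mouse, and the count of genes 2-fold apart was 1 of 5 for saline-injected mouse mutants against WT (2 in the report) and 1 of 4 for leptin-injected mouse mutants against WT (3 in the report). In rat, Igfbp2 against WT was -2.11 with the floor at the 75th percentile, because both mutant signals then lay under it. Centring arrays on their medians moved the median of all mouse genes to 0.22 for saline-injected mutants and 0.18 for leptin-injected mutants against WT (-0.03 each as deposited). The higher and lower counts were then 962 and 235 (533 and 443 as deposited, 663 and 351 after quantile normalization) and 767 and 235 (476 and 414 as deposited). For leptin against saline in rat they were 29 and 20 (23 and 27 as deposited). Totals past 2-fold ran, with the higher floor and with no floor, between 465 and 2463, 9 and 1269, and 413 and 2385 for the mouse comparisons in the report's order (976, 49 and 890 in the report), and between 186 and 1413, 13 and 854, and 186 and 1435 for the rat ones (436, 50 and 433). No paired analysis was possible because each group held 1 array, so no array could be left out either. The image and cell-level files were not analysed here.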
